A study of Homo sapiens with 12 samples.

Results

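The 143BTK- arrays of the study, 6 of its 12, compared cells without mitochondrial DNA (mtDNA) with the parental cells they came from, to find which nuclear transcripts differ once mtDNA is gone. 143BTK- is a human osteosarcoma line without thymidine kinase activity, and the other 6 arrays are of A549, a lung adenocarcinoma line treated in the same way. There were 3 arrays of cells without mtDNA (ρ° A, B and C) and 3 of parental cells (ρ+ A, B and C), each from its own RNA extraction, and the study calls the 3 of a group biological replicates. The ρ° cells had been exposed to ethidium bromide at 50 ng/ml for 3 weeks and were a mixed population with no clone picked, whereas the ρ+ cells had no ethidium bromide. By the study's methods the ethidium bromide was then removed. Both kinds of cells were later frozen, revived and passaged before RNA was taken. They grew in high-glucose medium with 10% serum, 1 mM pyruvate and 50 µg/ml uridine, and 12 µg of total RNA went into an array. The array carries 22283 probe sets, which are sets of oligonucleotides that together measure 1 transcript near its 3′ end. Of these, 13070 (58.7%) had a geometric mean signal of at least 16 over the 6 arrays and were tested, and 11676 of the tested ones were assigned to 7905 genes.

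The mtDNA encodes core subunits of respiratory complexes I, III, IV and V together with the rRNAs and tRNAs that translate them, and all other mitochondrial proteins come from nuclear genes. Cells without mtDNA have no working respiratory chain. They live on glycolysis, and they need uridine because pyrimidine synthesis passes electrons to the chain through dihydroorotate dehydrogenase, and pyruvate to keep NADH oxidised. Ethidium bromide intercalates into DNA and blocks the copying of mtDNA well before that of nuclear DNA. Any difference between ρ° and ρ+ cells here is therefore one between cells that had and had not been exposed to it, and the loss of mtDNA and the exposure cannot be told apart.

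The label was checked against 24 markers of mesenchymal and osteoblast cells and 22 of epithelial cells. Signals of different probe sets are not on one scale, so the values say which probe sets were above the floor and no more. Of the 24 markers 15 were tested, among them VIM, the intermediate filament of mesenchymal cells (5598 to 7106), CD44, a receptor for hyaluronan (484.2 to 1150), and the bone matrix proteins SPARC (491.0 to 805.2) and SPP1 (65.0 to 115.1). COL1A1, a chain of type I collagen, passed with 1 probe set (62.2 to 116.2) and not with the other 3, and IBSP (bone sialoprotein) and both probe sets of COL1A2 were below the floor. RUNX2, a transcription factor of osteoblasts (2 to 18.8), ALPL (5.9 to 17.2), TNFRSF11B, POSTN and S100A4 also had geometric means below the floor in every probe set. The summed signal of the list was 9161 to 9628 on the ρ+ and 9589 to 11089 on the ρ° arrays. Of the 22 epithelial markers 10 were tested, with a summed signal of 4469 to 5397 in ρ+ and 3222 to 5277 in ρ° cells, most of it from the keratin KRT18 (2832 to 5027). CDH1 (E-cadherin), a defining gene of epithelia, was below the floor in both probe sets (0.4 to 12.8), as was KRT19 (0.5 to 4.3), whereas EPCAM, an epithelial surface protein, passed at 24.8 to 47.4. Of the 15 tested mesenchymal and osteoblast markers 2 were higher and 1 lower in ρ° cells at an unadjusted p under 0.05. The 10 tested epithelial markers also had 2 higher and 1 lower, where 3.92% of all 7905 genes were higher and 5.01% lower. KRT7, a keratin, was at 9.1, 12.7 and 12.1 in ρ+ and at 27.2, 46.0 and 16 in ρ° cells (at least 1.70-fold higher), SFTPC, a surfactant protein, had a log2 change of 0.95 in 1 probe set, and NKX2-1, a transcription factor of lung and thyroid, was at 28.4, 17.7 and 55.1 against 5.1, 11.8 and 12.7 (at least 1.89-fold lower). Another probe set each of KRT7 (0.4 to 7.3) and NKX2-1 (3.6 to 13.6) lay below the floor on all 6 arrays. The other SFTPC probe sets did so too (1.1 to 10.6). The part of these epithelial genes in other results was not tested.

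The arrays of a group were not equally alike. The correlation of log2 signals was 0.966 between ρ+ A and ρ+ B, whereas ρ+ C correlated with these at 0.915 to 0.930 and with ρ° B of the other group at 0.922. ρ° B in turn correlated with its own group at 0.901 to 0.914. Signals of bacterial control transcripts also differed, with BioB at 55.9, 299.3 and 40.2 on ρ+ A, B and C and at 1020, 1183 and 43.4 on ρ° A, B and C. The ratio of the 3′ to the 5′ probe sets, a sign of RNA integrity, ran from 0.772 to 1.02 for GAPDH and from 0.861 to 1.5 for ACTB, with the highest ACTB ratio on ρ° B. Counts of the gene lists are therefore also given, for the lists described at length, without ρ+ C and ρ° B (the 4-array comparison) and with the mean log2 signal of 9 such control probe sets as a covariate (the control covariate). As the arrays were quantile-normalized, every value is relative to the other transcripts of the same cells, and fewer cells making a transcript and less of it per cell cannot be told apart.

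No probe set passed the adjusted threshold. With limma, 0 of 13070 probe sets were higher (0%) and 0 were lower (0%) in ρ° cells at an adjusted p under 0.05. The smallest adjusted p was 0.0899. At an unadjusted p under 0.05, limma gave 514 probe sets higher (3.93%) and 614 lower (4.7%), in all 8.63% of those tested. The ρ° arrays lay wholly above the ρ+ arrays in 987 probe sets (7.55%) and wholly below in 989 (7.57%), and 100 of the former and 181 of the latter also differed by at least 2-fold. The median absolute log2 change between the group means was 0.26. Single arrays differed by a median of 0.266 to 0.477 within a group and of 0.326 to 0.525 between the groups. Means of 3 arrays vary less than single arrays, so the 0.26 is not to be set against these ranges. With 3 arrays in a group an exact two-sided permutation test cannot go below p = 0.1. The power law global error model of the study's methods was rewritten here. At 0.05 per probe set, with no adjustment for their number, it called 776 higher and 915 lower when fitted on the ρ+ arrays, and 588 and 729 when fitted on the ρ° arrays. Such a level lets through a fixed share of the probe sets even where nothing differs, so these counts stand beside limma's unadjusted ones and not beside its 0, and the study fitted the model on separate data that were not used here. limma with array quality weights called 11 higher and 14 lower. Its weights were 0.489 for ρ+ C and 0.479 for ρ° B and between 0.682 and 2.82 for the other 4 arrays. All changes below are thus differences between these arrays, described as higher or lower in ρ° cells, and none of them passed the main test.

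**Figure D1:**
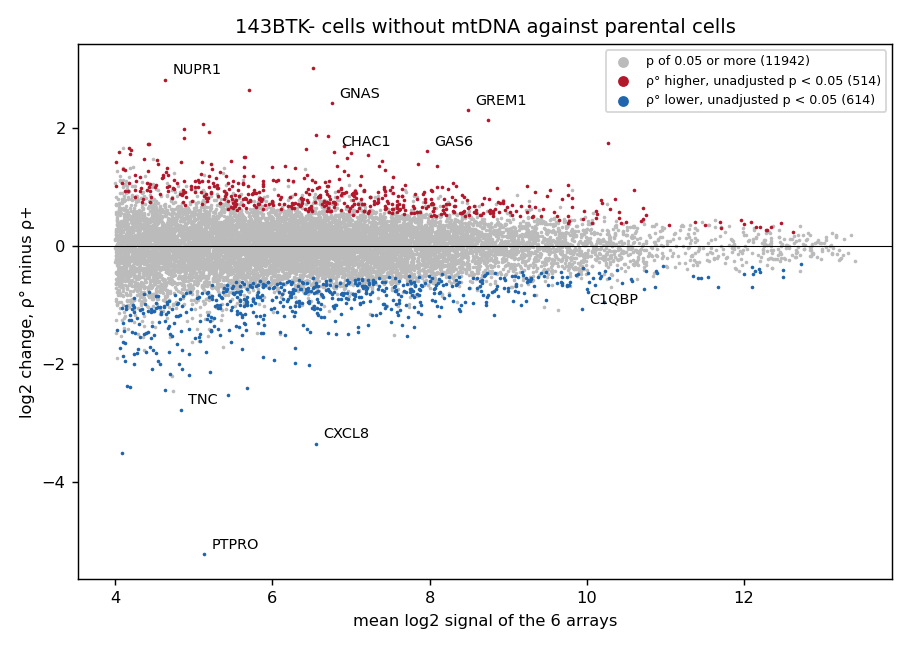
Log2 change (ρ° minus ρ+, vertical axis) against the mean log2 signal of the 6 arrays (horizontal axis) for 13070 probe sets of 143BTK-, each point 1 probe set over 3 arrays against 3. Coloured points have an unadjusted p under 0.05, 514 higher and 614 lower, and the size of a change is not measured where 1 group lies below a signal of 16, as for PTPRO, TNC and NUPR1.

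The probe sets with the smallest adjusted p (0.0899 from limma) stood for PTPRO, GNAS, TNC and GREM1; they were chosen after their values were seen. PTPRO, a receptor tyrosine phosphatase, had signals of 179.7, 121.4 and 447.1 in ρ+ and of 4.3, 3.2 and 13.7 in ρ° cells. The ρ° signals were under the floor of 16 on every array, so that the transcript was at least 13.4-fold lower. TNC, the matrix glycoprotein tenascin C, had signals of 65.9, 82.0 and 76.5 in ρ+ and of 7.7, 10.4 and 16.3 in ρ° cells, at least 4.66-fold lower. For both genes the groups were far apart and the 3 ρ° arrays sat at or near the floor. A probe set of GNAS, the gene of the stimulatory G protein alpha subunit, went from 46.3, 59.8 and 37.3 to 254.7, 182.7 and 336.0, a log2 change of 2.41 (SE 0.31). This change was that of 1 probe set alone, since the other 6 probe sets of GNAS had log2 changes between −0.13 and 0.14. FABP4, a fatty acid carrier of adipocytes and macrophages, also chosen after its values were seen, had the signals 25.4, 39.7 and 33.4 in ρ+ and 805.2, 231.8 and 94.2 in ρ° cells (log2 change 3.01, SE 0.64). Its ρ° arrays were all above the ρ+ arrays but lay far from each other.

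Several probe sets read the same gene in 2580 of the 7905 genes, 1732 with 2 and 848 with 3 or more. This allows a measured change to be set against a second measurement on the same arrays, which tests the probes but not the cells. In 1588 genes (61.6%, exact 95% binomial interval 59.6 to 63.4%) all probe sets of a gene changed in one direction, and among genes with exactly 2 probe sets the share was 67.3%. The interval treats genes as independent, although they share the same 6 arrays, so it does not measure the spread between arrays. The agreement grew with the size of the change. Where the brighter probe set moved by under 0.25 on the log2 scale, the next one moved the same way in 755 of 1298 genes (58.2%). The share was 75.6% of 795 genes from 0.25 to 0.5, 87.7% of 431 from 0.5 to 1 and 91.1% of 56 genes at 1 or more. Brighter probe sets agreed better. Across all 2580 genes the changes of the 2 brightest probe sets correlated with r = 0.580 (Pearson) and rho = 0.555 (Spearman), and r was 0.723 in the 1383 genes with both at a signal of 64 or more. These are correlations across genes that share the same 6 arrays, and genes are not independent replicates.

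Of 101 genes whose brighter probe set was higher in ρ° cells at an unadjusted p under 0.05, the second probe set was also higher in 94 (93.1%) and was itself under 0.05 in 44 (43.6%). Of 138 genes whose brighter probe set was lower, the second was lower in 124 (89.9%) and under 0.05 in 52 (37.7%). In the 2341 genes whose brighter probe set did not reach that level, the second was under 0.05 in 5.51%. The second change was the smaller one, with medians of 0.54 against 0.70 for the genes that were higher and of −0.52 against −0.75 for those that were lower. These genes were picked by the p of the brighter probe set, so a smaller second change follows in part from that choice. CIAO1, a factor that delivers iron-sulphur clusters to cytosolic proteins, was the only gene with probe sets under 0.05 in opposite directions. Its brighter probe set went from 137.7, 157.4 and 172.2 to 79.0, 127.5 and 102.0 (log2 change −0.62), and the dimmer from 36.8, 26.0 and 21.2 to 58.6, 43.4 and 43.5 (0.82). All of a gene's 2 or more probe sets were under 0.05 in one direction in 37 genes that were higher and 39 that were lower.

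**Figure D2:**
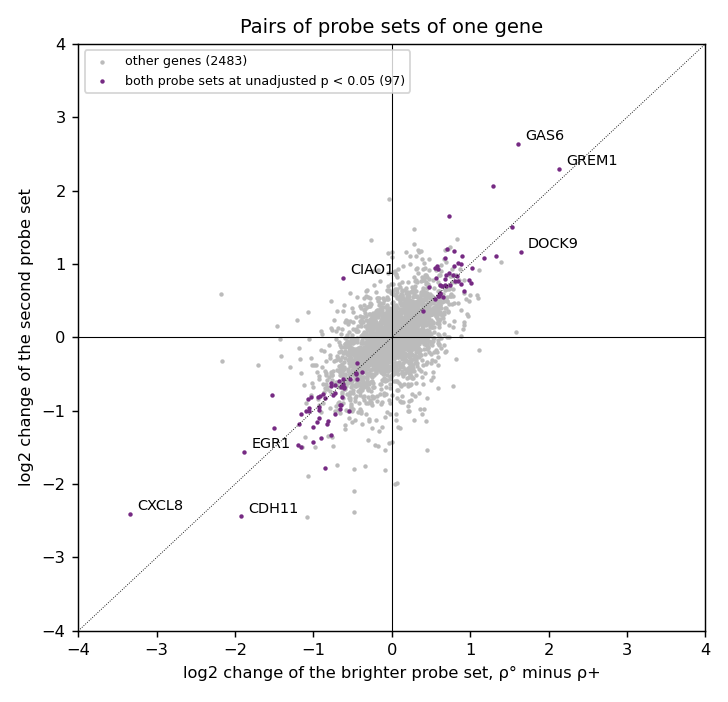
Log2 change (ρ° minus ρ+) of the brighter (horizontal axis) and the second brightest (vertical axis) tested probe set of 2580 genes, each point 1 gene. Coloured genes had both probe sets under an unadjusted limma p of 0.05, and of these 97 only CIAO1 has changes of opposite sign.

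Of the 37 genes that were higher with every probe set, the 10 with the largest smaller change were GREM1, GAS6, NNMT, DOCK9, MME, IGFBP3, SEC11A, ZFTRAF1, SOCS2 and NNT. GREM1, GAS6 and IGFBP3 are secreted, and MME sits on the cell surface. GREM1, a secreted antagonist of bone morphogenetic proteins, had signals of 195.1, 138.5 and 318.8 in ρ+ and of 1146, 850.1 and 754.6 in ρ° cells (4.4-fold, log2 change 2.14, SE 0.32), and its other probe set was 4.92-fold higher. GAS6, a secreted ligand of the TYRO3, AXL and MERTK receptors, went from 99, 155.4 and 192.7 to 454.8, 470.9 and 392.7 (3.05-fold, SE 0.28 on the log2 scale), with 6.22-fold in the other probe set. For both genes every ρ° array stood clearly above every ρ+ array in both probe sets. DOCK9, an activator of the GTPase CDC42, was at 44.0, 46.8 and 56.1 in ρ+ and at 146.3, 161.2 and 150.3 in ρ° cells, 3.13-fold higher, with arrays of a group close together. Its other probe set was near the floor and its groups overlapped.

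MME, the membrane peptidase neprilysin, went from 44.6, 40.6 and 65.8 to 97.3, 142.2 and 135.7 (2.51-fold), and IGFBP3, which binds insulin-like growth factors, from 85.4, 178.8 and 123.2 to 306.5, 210.0 and 333.6 (2.25-fold). SEC11A, a catalytic subunit of the signal peptidase, which trims secreted proteins at the endoplasmic reticulum, went from 633.5, 570.0 and 623.6 to 1364, 1375 and 1013 (2.04-fold). The groups did not overlap in any of the 3 genes, although ρ+ B and ρ° B of IGFBP3 lay close. NNT, the transhydrogenase of the inner mitochondrial membrane that makes NADPH from NADH, was at 56.1, 68.0 and 102.9 in ρ+ and at 130.7, 118.3 and 141.4 in ρ° cells, and its 2 probe sets had log2 changes of 0.83 and 0.84. NNMT, which methylates nicotinamide, had log2 changes of 1.54 and 1.5, and the values of SOCS2, a feedback inhibitor of cytokine receptors, were 0.85 and 1.02. The groups of SOCS2 overlapped in its brighter probe set (183.4 on ρ° A against 219.4 on ρ+ C). ZFTRAF1, a zinc finger protein, was dim, with signals of 19.1 to 23.3 in ρ+ and 32.8 to 49.5 in ρ° cells.

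Of the 39 genes that were lower with every probe set, the 10 with the largest smaller change were CXCL8, CDH11, EGR1, USP46, PDGFRA, RTN1, SMTN, GABBR2, RFK and PPAT. CXCL8, the chemokine interleukin 8, had signals of 552.4, 863.0 and 56.8 in ρ+ and of 19.7, 14.2 and 92.0 in ρ° cells (log2 change −3.35, SE 0.99). The groups overlapped because ρ+ C was low and ρ° C high, and in the other probe set they did not, at 192.0, 201.7 and 41.4 against 23.1, 15 and 31.4. CDH11, the cadherin of osteoblasts, went from 239.3, 134.2 and 63.2 to 49.4, 19.0 and 39.6 (3.79-fold lower), and PDGFRA, a receptor of platelet-derived growth factors, from 203.3, 155.3 and 113.9 to 65.6, 53.8 and 84.3 (2.29-fold lower). EGR1, an immediate-early transcription factor, was 3.68-fold lower, at 103.8, 75.6 and 184.0 against 18.3, 26.4 and 59.9. In CDH11, PDGFRA and EGR1 all ρ° arrays lay below all ρ+ arrays in both probe sets, with a spread of over 2-fold within a group in CDH11 and EGR1.

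USP46, a deubiquitinase, was at 118.5, 141.0 and 105.9 in ρ+ and at 34.7, 39.4 and 56.2 in ρ° cells (2.85-fold lower, SE 0.29 on the log2 scale), and RFK, which turns riboflavin into the flavin mononucleotide that complex I carries, at 253.1, 283.1 and 254.9 against 122.9, 115.6 and 141.9 (2.08-fold lower). PPAT, the first committed enzyme of purine synthesis, was at 234.9, 244.6 and 348.3 in ρ+ and at 126.0, 178.4 and 121.1 in ρ° cells (1.94-fold lower), and its other probe set was 2.23-fold lower. GABBR2, a subunit of the metabotropic GABA receptor, had 4 tested probe sets. Their log2 changes were −1.0 to −1.75, and the groups were apart in every one of them. RTN1, a reticulon of the endoplasmic reticulum, was 2.27-fold and SMTN, a protein of smooth muscle actin filaments, 2.23-fold lower in the brighter probe set.

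**Figure D3:**
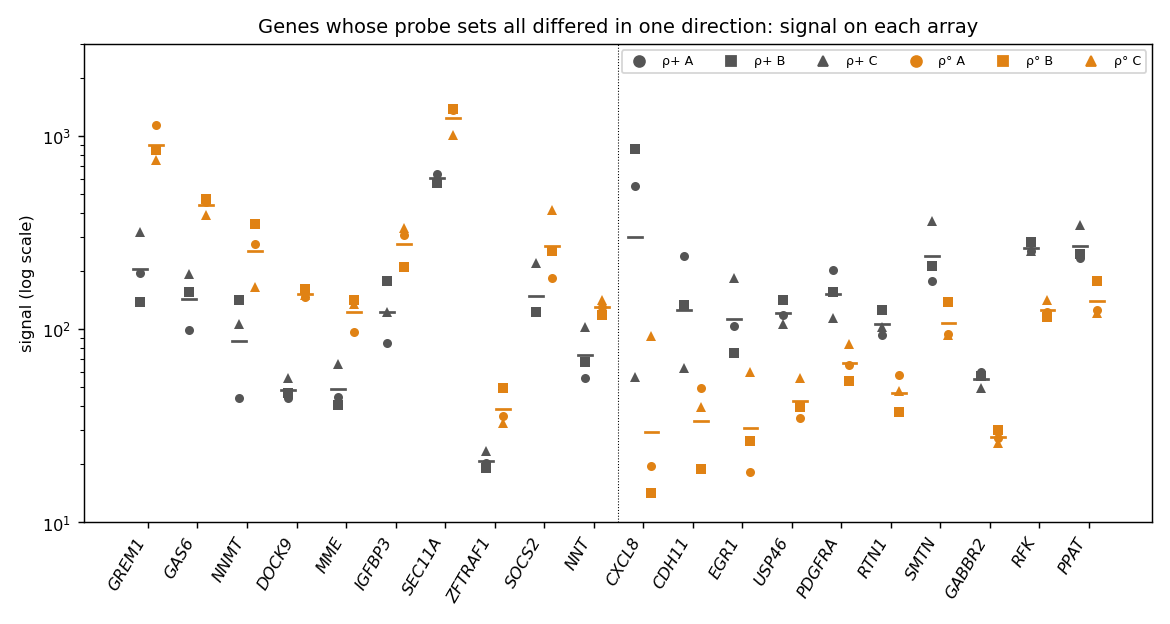
Signal on each array (logarithmic axis) of the brightest probe set of the 20 genes whose probe sets all pointed one way at an unadjusted p under 0.05, with ρ+ and ρ° arrays side by side the array letters A, B and C marked by shape and horizontal bars at the geometric mean of 3 arrays. The groups overlap in SOCS2 and CXCL8 and are apart in the other genes.

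The integrated stress response is the pathway by which kinases that sense amino acid shortage, endoplasmic reticulum stress or mitochondrial faults phosphorylate eIF2, which leads to translation of the transcription factor ATF4 and to transcription of genes for amino acid synthesis, uptake and tRNA charging. Of 41 genes listed for it, 38 were tested. Taking the brightest probe set of a gene, 9 (23.7%) were higher at an unadjusted p under 0.05 and 0 were lower, where 3.92% of all 7905 genes were higher and 5.01% lower. The median log2 change of the list was 0.42 against −0.00 for all genes, and 33 of the 38 had a positive change. The count was 10 with the median of each chromosome taken out, 11 with the control covariate and 17 in the 4-array comparison (where 1 was lower). The counts over all 7905 genes moved as well. They were 263 higher and 291 lower with chromosome medians taken out. With the control covariate they were 202 and 322, and in the 4-array comparison 346 and 478. Refits of the lists below are to be read beside these.

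NUPR1, a small chromatin protein induced by stress, had signals of 11.5, 4.1 and 17.5 in ρ+ and of 84.7, 67.0 and 50.9 in ρ° cells, at least 4.13-fold higher. CHAC1, which degrades glutathione, was at 59.4, 102.7 and 42.0 in ρ+ and at 213.5, 179.5 and 186.6 in ρ° cells (3.03-fold, SE 0.34 on the log2 scale). PYCR1, the mitochondrial enzyme of the last step of proline synthesis, went from 156.4, 207.1 and 201.3 to 375.9, 448.8 and 282.0 (1.94-fold). In all 3 the groups were apart. Of proteins that handle amino acids, SLC1A5, a glutamine transporter, went from 263.9, 264.9 and 248.9 to 507.6, 478.7 and 400.6 (1.78-fold). TARS1, the threonyl-tRNA synthetase, went from 1059, 1009 and 967.6 to 1513, 1634 and 1561 (1.55-fold, SE 0.15 on the log2 scale), a small change between arrays that agreed closely. The other tRNA synthetases under 0.05 were GARS1 for glycine (log2 change 0.65, groups overlapping) and SARS1 for serine (0.42). SHMT2, which splits serine into glycine and a one-carbon unit in mitochondria, was higher in all 3 of its probe sets (0.47, 0.68 and 0.87), and ATF4 itself had a change of 0.45.

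ATF4 and its partners of the C/EBP family bind a composite element, and its letters TGATGNAA were looked for on both strands in the 250 bases before the annotated start of each gene, in promoter sequences of RefSeq (GRCh38.p14). Of the 33 tested list members with a promoter sequence 7 held the letters (21.2%), as did 2.54% of 6580 tested genes and 3.89% of 27305 genes in all. The list was drawn up from genes of this response, so its share describes the list and says nothing about these arrays. NUPR1, PYCR1 and SHMT2 had no promoter sequence and were not searched. The 7 were CHAC1, SLC1A5, GARS1, AARS1, ASNS, ATF3 and CEBPG. The stretches of the 3 that were under 0.05 in the arrays are shown here so that the match can be read. The lines give 30 bases on the strand of the gene with the matched letters in capitals.
CHAC1: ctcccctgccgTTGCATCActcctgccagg
SLC1A5: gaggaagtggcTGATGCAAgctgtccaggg
GARS1: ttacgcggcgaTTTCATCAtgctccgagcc
The CHAC1 stretch lies at chr15:40953251-40953280 on the plus strand, and its match begins 209 bases before the start and reads on the opposite strand. SLC1A5 is on the minus strand (chr19:46784893-46784922, 97 bases before the start), and GARS1 on the plus strand (chr7:30594834-30594863, 33 bases before, opposite strand). A match is a description of the letters in this window and was not tested as a binding site.

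**Figure D4:**
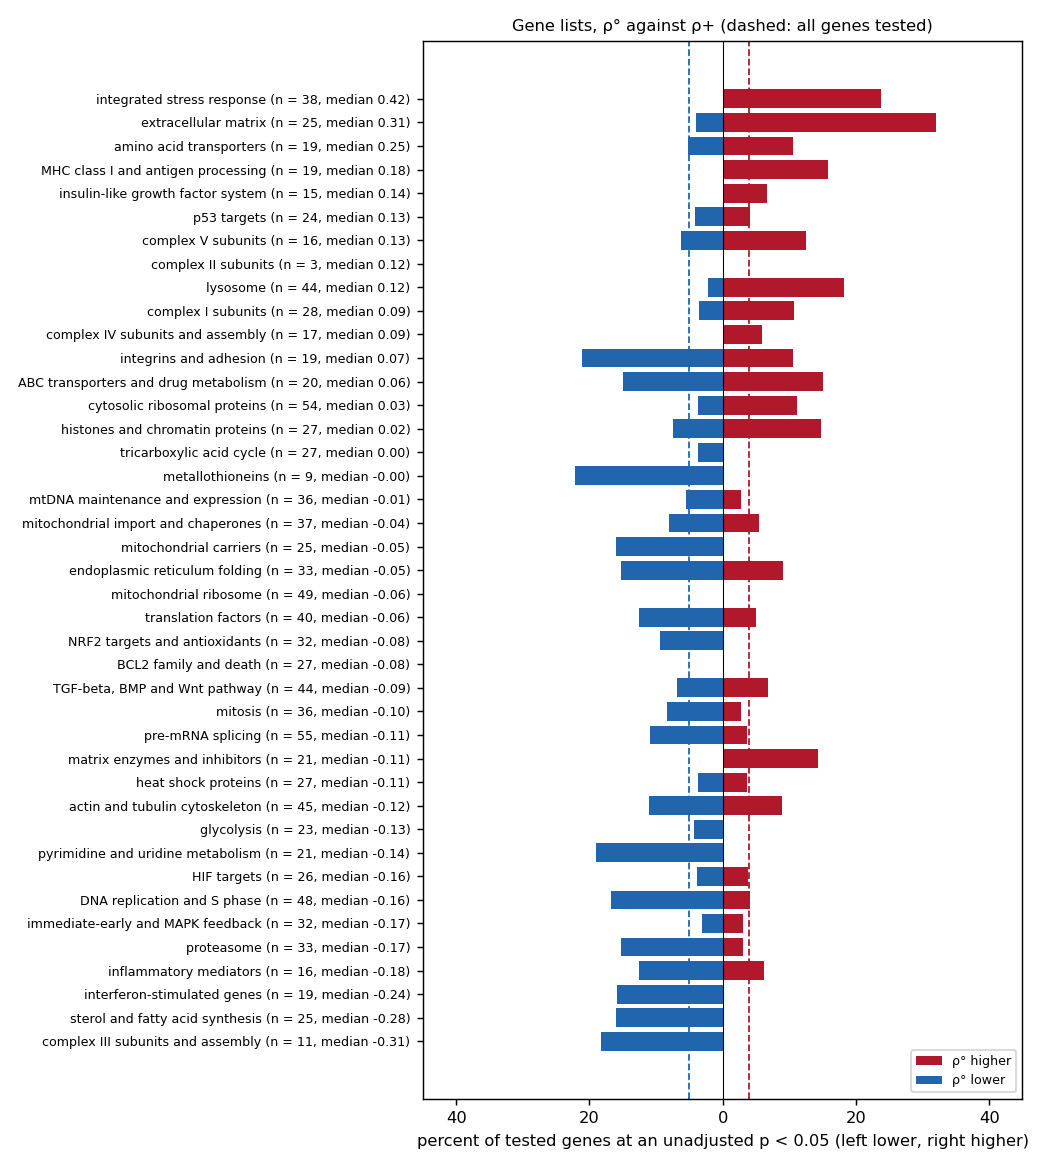
Number of tested genes of each list that were higher (right) or lower (left) in ρ° cells at an unadjusted p under 0.05, in percent of the tested genes, with dashed lines at the shares over all genes (3.92% and 5.01%). The integrated stress response (9 higher, 0 lower of 38) and the extracellular matrix (8 higher, 1 lower of 25) reach furthest to the right.

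Extracellular matrix genes, the collagens, laminins and glycoproteins that the cells deposit around them, were higher in ρ° cells more often than lower. Of 34 listed genes 25 were tested, of which 8 (32%) were higher and 1 (4%) lower at an unadjusted p under 0.05, with a median log2 change of 0.31. Over all genes tested these shares were 3.92% and 5.01%. The count of 8 became 6 with the mean of all probe sets of a gene, 6 with chromosome medians taken out, 5 in the 4-array comparison and 3 with the control covariate. Over all genes the 310 higher ones became 317, 263, 346 and 202 in these fits. All 3 chains of collagen VI, a network of beaded filaments around cells, were among the 8. COL6A1 went from 146.8, 60.4 and 153.2 to 261.0, 261.8 and 288.0 (2.44-fold), COL6A2 had a log2 change of 0.95 and COL6A3 one of 1.02. Over its 5 probe sets COL6A1 had log2 changes from 0.51 to 2.07, and the dimmer probe set of COL6A2 had 0.52. In the brightest probe sets the groups of COL6A1 and COL6A2 were apart and those of COL6A3 overlapped, ρ+ B being the lowest array of all 3 genes. LAMB2 and LAMB1, beta chains of the basement membrane laminins, had log2 changes of 1.07 and 0.71, COL4A2, a basement membrane collagen, 0.76, and COL5A2, which sets the width of collagen fibrils, 0.80. Of the 4 probe sets of THBS1 (thrombospondin 1) 3 were higher, by 0.89 to 1.11, and the dimmest was not (−0.41).

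TNC was the 1 matrix gene that was lower. Enzymes that work on the matrix were higher in 3 cases and lower in 0 of 21 tested, although only 9 of the 21 had a positive change and their median was −0.11 (4 higher and 1 lower in the 4-array comparison, 3 and 2 with the control covariate). The 3 were MMP2, the gelatinase A that cleaves collagen IV (91.1, 41.1 and 62.2 in ρ+ against 167.9, 125.7 and 111.7 in ρ° cells, 2.16-fold), PCOLCE, which speeds up the trimming of procollagen (1.99-fold), and FKBP10, a collagen chaperone (log2 change 0.85, groups overlapping). Of 19 tested integrins and other adhesion genes 2 were higher and 4 lower, where 3.92% of all genes were higher and 5.01% lower. NCAM1, the neural cell adhesion molecule, was at 84.3, 83.4 and 57.7 in ρ+ and at 255.0, 261.5 and 162.5 in ρ° cells (2.99-fold), although its dimmer probe set had a change of 0.07. NRCAM, its relative, was at 65.0, 42.2 and 60.4 against 8.0, 16.3 and 13.9, at least 3.43-fold lower, and its dimmer probe set at −0.32 with overlapping groups. ITGA3, the alpha chain of a laminin receptor, had a change of 0.74 and ITGAE, the alpha chain of an E-cadherin receptor, one of −0.77.

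Lysosomal genes were higher in 8 of 44 tested genes (18.2%, all genes 3.92%) and lower in 1 (2.27%, all genes 5.01%), with a median log2 change of 0.12. These counts were 0 and 1 with the control covariate and 4 and 2 in the 4-array comparison, and the part of the bacterial control signal in the 8 was not tested further. Over all 7905 genes the counts were 202 and 322 with the covariate and 346 and 478 in the 4-array comparison. Among the 8, MAN2B2, a mannosidase, had a log2 change of 1.10, NAGLU, a glucosaminidase, 0.78, and CTSD, the aspartic protease cathepsin D, 0.68. LIPA, the acid lipase, went from 238.3, 297.1 and 296.5 to 422.5, 438.7 and 363.3 (1.47-fold). GRN, the secreted and lysosomal glycoprotein progranulin, was higher in all 3 of its probe sets (0.57, 0.80 and 0.81). GPNMB, a membrane glycoprotein of lysosomes, was at 27.7, 22.8 and 28.1 in ρ+ and at 96.9, 89.8 and 27.3 in ρ° cells, with the ρ° C array at the level of the ρ+ arrays. The 1 lower gene was PPT1, a thioesterase (−0.49). MHC class I and its helpers were higher in 3 of 19 and lower in 0: CALR, the chaperone calreticulin, in all 3 probe sets (0.56 to 0.85), B2M, the light chain of class I, in both (0.36 and 0.40), and FCGRT, the neonatal Fc receptor, at least 2.16-fold. The count of 3 was 1 with chromosome medians taken out, and CALR and FCGRT lie on chromosome 19.

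Nuclear genes of the respiratory chain, whose proteins have lost their mtDNA-encoded partners in ρ° cells, were for the most part within the spread of the arrays. Of complex I, which passes electrons from NADH, 3 of 28 tested subunits were higher (10.7%) and 1 lower (3.57%) at an unadjusted p under 0.05, with a median log2 change of 0.09. Over all genes these shares were 3.92% and 5.01%. The 3 became 1 in the 4-array comparison, 1 with the control covariate and 2 with chromosome medians taken out. NDUFA1 went from 884.9, 987.4 and 795.7 to 1357, 1450 and 1774 (1.71-fold, SE 0.18 on the log2 scale), and NDUFC1 the other way, from 736.0, 878.2 and 881.0 to 367.8, 454.9 and 493.7 (1.90-fold lower, SE 0.20). The groups were apart for both, and both are subunits of the membrane arm. NDUFS6, an accessory subunit by the matrix arm, had a log2 change of 0.59 and NDUFA13 one of 0.45. Of complex II, the complex without an mtDNA-encoded subunit, 0 of 3 subunits were under 0.05. Of complex III 0 of 11 were higher and 2 lower (1 with the control covariate), with a median of −0.31 and a positive change in 3. The 2 were the assembly factor TTC19 (−0.75) and the small subunit UQCR10 (−0.63, groups overlapping). UQCRFS1, the Rieske protein, was at 1581, 1666 and 1497 in ρ+ and at 1129, 1056 and 1513 in ρ° cells. Its log2 change of −0.38 did not reach an unadjusted p of 0.05 (it did at −0.55 with chromosome medians taken out), and ρ° C lay among the ρ+ arrays.

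Of complex IV, 1 of 17 was higher, COX7A2L, which joins it to complex III (706.2, 925.4 and 1156 in ρ+ against 1271, 1822 and 1482 in ρ° cells, log2 change 0.73), and 0 were lower. Of complex V, 2 of 16 were higher and 1 lower (1 and 1 in the 4-array comparison and with the control covariate). All genes together had 3.92% higher and 5.01% lower. ATP5ME, the membrane subunit e, went from 465.9, 645.3 and 523.3 to 994.6, 1034 and 887.4 (1.80-fold), whereas ATP5PB, the b subunit of the stalk that holds F1 to the membrane, went from 4714, 3836 and 3935 to 2480, 1970 and 3478 (1.61-fold lower), and ATP5F1D had a change of 0.50. Of 49 tested proteins of the mitochondrial ribosome, which has no mRNA left to translate in ρ° cells, 0 were higher and 0 lower at an unadjusted p under 0.05, and their median change was −0.06 (0 higher and 4 lower in the 4-array comparison, 0 and 3 with the control covariate).

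C1QBP, an acidic protein of the matrix that binds mitochondrial mRNA, had signals of 1463, 1372 and 1429 in ρ+ and of 621.3, 575.9 and 864.5 in ρ° cells (2.10-fold lower, SE 0.20 on the log2 scale), and its other probe set was 1.78-fold lower, and the groups were apart in both. Of 25 members of the mitochondrial carrier family 4 (16%) were lower and 0 higher (5.01% and 3.92% of all genes), and the 4 became 2 with chromosome medians taken out. They were SLC25A11, which exchanges oxoglutarate for malate (416.1, 434.8 and 279.1 against 215.4, 184.3 and 186.6, 1.90-fold lower, and 2.0-fold in its other probe set), the citrate carrier SLC25A1 (−0.73), the peroxisomal carrier SLC25A17 (−0.81) and SLC25A16 (−0.58, and 0.23 in its dimmer probe set). In the import and chaperone list 2 of 37 were higher and 3 lower. LONP1, a protease of the matrix, had a log2 change of 0.65, and PHB1, prohibitin, had 0.62 in its brighter probe set and −0.14 in the other. Of 36 genes that copy and express mtDNA 1 was higher and 2 lower, of 27 tricarboxylic acid cycle genes 0 and 1, and of 23 glycolytic genes 0 and 1.

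DNA replication genes were lower in 8 of 48 tested (16.7%, all genes 5.01%) and higher in 2 (4.17%, all genes 3.92%), with a median log2 change of −0.16 and a positive change in 14. The 8 became 6 with chromosome medians taken out, 5 in the 4-array comparison and 2 with the control covariate. The lower genes over all 7905 went from 396 to 291, 478 and 322 in the same fits. RPA1, the large subunit of the protein that coats single-stranded DNA, was at 829.5, 757.2 and 636.9 in ρ+ and at 446.0, 318.2 and 412.9 in ρ° cells (1.90-fold lower), and its other probe set was 1.93-fold lower, while RPA2 had a log2 change of −0.86. PCNA, the sliding clamp of DNA polymerases, was at 665.7, 437.3 and 378.9 against 301.9, 134.1 and 339.0, a change of −1.0 with a standard error of 0.37. ρ° B was the lowest array for PCNA, POLE2 (a subunit of polymerase epsilon, −0.81), CDC45 (a helicase factor, −0.81) and RRM2 (ribonucleotide reductase, −0.54). MCM5 of the replicative helicase had a change of −0.53. The 2 that were higher were POLD2, a subunit of polymerase delta (287.1, 426.0 and 388.4 against 612.7, 647.3 and 556.3, 1.67-fold), and LIG1, the ligase of Okazaki fragments (0.65). Of 36 mitosis genes 1 was higher (2.78%) and 3 were lower (8.33%), and 0 were lower with chromosome medians taken out. CDKN1A, the cyclin-dependent kinase inhibitor p21, was lower, at 136.4, 149.8 and 183.6 in ρ+ and at 98.5, 105.6 and 69.1 in ρ° cells (1.73-fold).

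Pyrimidine and uridine metabolism, on which cells without a respiratory chain depend for added uridine, had 4 of 21 tested genes lower (19%) and 0 higher (5.01% and 3.92% of all genes), and 1 lower with the control covariate. UPP1, which splits uridine into uracil and ribose phosphate, was at 279.3, 441.0 and 544.5 in ρ+ and at 216.5, 242.5 and 147.8 in ρ° cells (2.05-fold lower). CTPS1, which makes CTP from UTP, was at 799.5, 488.1 and 284.3 against 282.2, 153.3 and 282.2 (2.09-fold lower), with ρ+ C just above 2 of the ρ° arrays. TK1, the thymidine kinase that this line lacks as an activity, was dim and had signals of 75.5, 118.8 and 75.5 against 54.6, 47.7 and 61.9 (log2 change −0.69). RRM2 is the fourth of them and is also in the replication list.

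Genes of sterol and fatty acid synthesis were lower in 4 of 25 tested (16%) and higher in 0 (5.01% and 3.92% of all genes), with a median log2 change of −0.28 and a positive change in 4 of the 25. The count was 6 with the mean of all probe sets and in the 4-array comparison, 4 with the control covariate and 3 with chromosome medians taken out. SREBF1, the transcription factor that switches on these enzymes, was at 70.4, 65.3 and 79.7 in ρ+ and at 34.7, 27.7 and 35.7 in ρ° cells (2.20-fold lower, SE 0.27 on the log2 scale). FADS2, a fatty acid desaturase, was at 182.5, 123.3 and 98.5 against 64.1, 51.2 and 76.5 (2.07-fold lower), and ELOVL6, which lengthens palmitate, at 109.1, 113.4 and 121.3 against 69.6, 28.2 and 74.9 (2.17-fold lower). The ρ° arrays lay below the ρ+ arrays for these 3 genes. MSMO1, a sterol oxidase of cholesterol synthesis, had a change of −1.08 with overlapping groups.

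Of 32 tested antioxidant genes and targets of the transcription factor NRF2, 0 were higher and 3 lower: GCLM, the modifier subunit of the enzyme that starts glutathione synthesis (280.1, 334.7 and 241.9 against 150.6, 98.7 and 150.6, 2.16-fold lower), GSTM3, a glutathione transferase (454.6, 735.0 and 918.3 against 308.1, 323.2 and 276.0, 2.23-fold lower), and PRDX1, a peroxiredoxin (−0.51). The groups were apart in all 3 genes, and all 3 lie on chromosome 1. Of 16 inflammatory mediators CXCL8 and PTGS2, the inducible cyclooxygenase (106.3, 64.9 and 72.2 against 29, 22.9 and 47.6, 2.51-fold lower), were lower, and CSF1, the macrophage growth factor, was higher (1.11, groups overlapping, and −0.18 in its dimmer probe set). The 2 lower became 5 in the 4-array comparison and 4 with the control covariate, which left 0 higher. The lower genes over all 7905 went from 396 to 478 and 322 in these fits. Of 44 genes of the TGF-beta, BMP and Wnt pathways 3 were higher and 3 lower (6.82% each, against 3.92% and 5.01% of all genes). Among them were GREM1, DLK2, a membrane relative of Notch ligands (86.5, 85.3 and 62.2 against 14.3, 9.5 and 40.8), and INHBB, the beta B chain of activins and inhibins (25.8, 44.8 and 65.0 against 13.7, 25.3 and 14.5).

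Of 33 proteasome subunits 1 was higher and 5 lower, and these became 0 and 1 once chromosome medians were taken out. Over all 7905 genes 3.92% were higher and 5.01% lower, and 263 and 291 genes with chromosome medians taken out. The counts of this paragraph were not tested against those shares. Of 55 splicing factors 2 were higher and 6 lower (3 and 2 with chromosome medians taken out), of 40 translation factors 2 and 5 (1 and 2), and of 54 cytosolic ribosomal proteins 6 and 2 (5 and 3). Endoplasmic reticulum folding had 3 higher and 5 lower of 33, the actin and tubulin cytoskeleton 4 and 5 of 45, histones and chromatin proteins 4 and 2 of 27, ABC transporters and drug metabolism 3 and 3 of 20 and amino acid transporters 2 and 1 of 19. Interferon-stimulated genes had 0 higher and 3 lower of 19 (15.8%) and metallothioneins 0 and 2 of 9 (22.2%). With chromosome medians taken out, the pairs were 2 and 4 for folding, 1 and 4 for the cytoskeleton, 2 and 0 for histones, 2 and 2 for ABC transporters, 1 and 2 for interferon-stimulated genes and 0 and 1 for metallothioneins. In the 4-array comparison 9 splicing factors, 4 immediate-early genes and 4 HIF targets were lower and 5 amino acid transporters higher. There 346 genes were higher and 478 lower over all 7905. Targets of HIF (26 tested), targets of p53 (24), heat shock proteins (27) and immediate-early genes (32) had 1 higher and 1 lower each, the insulin-like growth factor system 1 and 0 of 15, and the BCL2 family and death genes 0 and 0 of 27.

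Genes of a chromosome tended to move together. For each of 23 chromosomes the mean log2 signal of its probe sets minus that of all others was taken on each array and set to a ρ+ mean of 0. The 3 ρ° arrays lay above the 3 ρ+ arrays for 8 chromosomes and below them for 6, and the groups overlapped for 9. Chromosome 14 was lowest, with ρ° values of −0.32, −0.39 and −0.28 against ρ+ values of −0.01, −0.05 and 0.06, a contrast of −0.33. Of its 401 probe sets 69 (17.2%) were lower and 3 (0.748%) higher at an unadjusted p under 0.05, where 4.7% and 3.93% of all probe sets were. Chromosome 13 was highest, at 0.28, 0.27 and 0.39 against 0.02, −0.06 and 0.04, and of its 222 probe sets 29 (13.1%) were higher and 2 lower. The contrasts of 0.31 and −0.33 were larger than the spread of the arrays within either group.

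Chromosome 22 had a contrast of −0.26, chromosome 4 one of −0.23 (68 of 381 probe sets lower, 17.8%), and chromosomes 1 and 9 had −0.18 each (107 of 1147 lower on chromosome 1). On the other side were chromosome 15 with 0.20 and chromosome 18 with 0.19. Chromosome 19 had a contrast of 0.20 too and 45 of 685 probe sets higher against 0 lower, but its groups overlapped, since ρ° C (0.07) lay below ρ+ B (0.08). Of the 2580 genes with several probe sets 35.4% lie on the 8 chromosomes that were higher and 25.7% on the 6 that were lower. Of the 37 genes that were higher with every probe set, 22 (59.5%) lie on the former and 4 on the latter, and of the 39 that were lower, 5 lie on the former and 24 (61.5%) on the latter. Of the 10 genes named in each direction these were 7 of 10 higher genes on chromosomes that were higher and 8 of 10 lower genes on chromosomes that were lower. These genes also enter the chromosome values, so the overlap is a description. With the median of each chromosome taken out, 446 probe sets were higher and 469 lower at an unadjusted p under 0.05, in place of 514 and 614. The log2 change became 1.36 for DOCK9 and 1.32 for GAS6 on chromosome 13, 1.95 for GREM1 on 15, −0.84 for RTN1 on 14, −1.27 for USP46, −0.96 for PDGFRA and −0.72 for PPAT on 4, and −0.90 for SMTN on 22, so that each kept its direction. Copies of the chromosomes were not measured here.

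**Figure D5:**
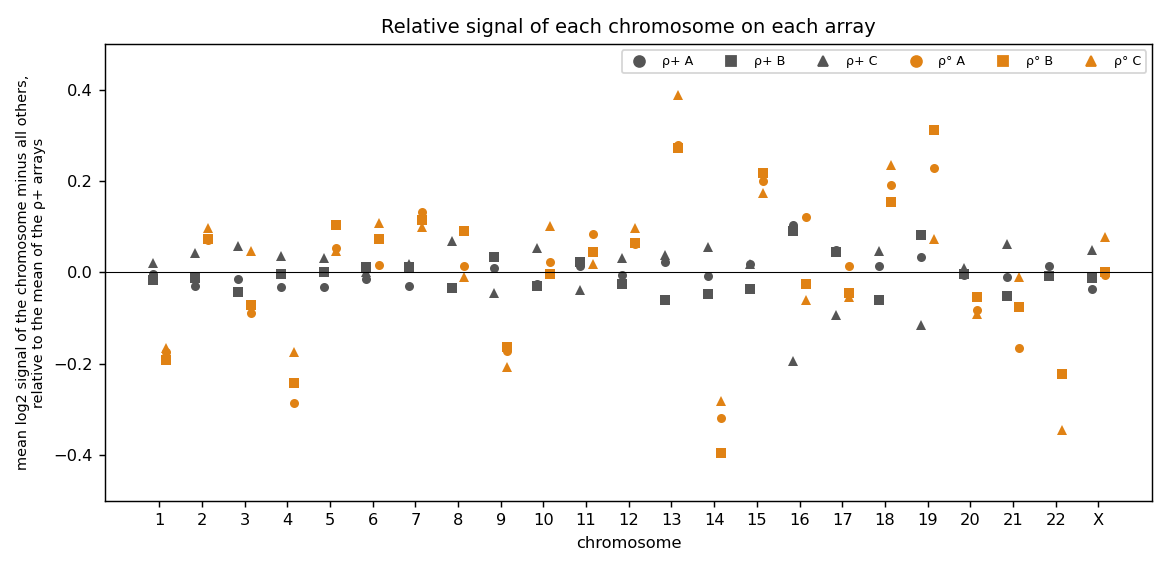
Mean log2 signal of the tested probe sets of each chromosome minus that of all other chromosomes, relative to the mean of the ρ+ arrays (vertical axis), for each of the 6 arrays. The 3 ρ° arrays lie together below the ρ+ arrays for chromosomes 1, 4, 9, 14, 20 and 22 and above them for 8 others, furthest for chromosome 13.

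The change in 143BTK- was set against that in A549 in a limma fit of all 12 arrays. Of 11990 probe sets tested in both lines, 240 (2%) had a change that differed between the lines at an adjusted p under 0.05. Of 92 genes named here and tested in both lines 12 were among them in their brightest probe set. Many of the 92 were named for their change in 143BTK-, which is itself a term of the difference. The 12 of 92 therefore cannot be set against the 2% of all probe sets. IGFBP3 was higher in 143BTK- ρ° cells (log2 change 1.17) and lower in those of A549 (−2.87), a difference of 4.04 (limma, adjusted p = 0.000225). GSTM3 went the other way, with −1.16 and 1.72 (adjusted p = 0.00207 from limma), and so did USP46, with −1.51 and 0.73 (0.0104). For complex I, NDUFC1 (−0.93 and 0.42, adjusted p = 0.0132 from limma) and NDUFS6 (0.59 and −0.62, 0.0351) both differed, in opposite directions. The levels themselves cannot be compared between the lines, as each was normalized on its own.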

How the data were processed

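RNA of 143BTK- ρ° and ρ+ cells was measured on Affymetrix human arrays, 3 per group, grouped by the titles in the labels. The values are intensities on a linear scale: the authors ran Microarray Suite to obtain probe set signals and then applied quantile normalization in R, separately for each cell line, and the deposited values (median 27.6 to 27.7, range 0.1 to 12270) were used as they are. The number of arrays limits the precision. The authors dropped probe sets with an Absent call on every array of the line and used a power law global error model. Detection calls were not used here. Instead, 68 control probe sets were left out and the remaining ones kept at a geometric mean signal of at least 16.

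Log2 signals (no offset) were compared with limma 3.58.1 in R 4.3.3 (lmFit and eBayes with intensity trend, two-sided, 4 residual degrees of freedom), with Benjamini-Hochberg adjustment over all tested probe sets and a threshold of 0.05. The difference between lines came from a limma fit of 12 arrays. The scripts were tested on simulated data. Where the geometric mean of 1 group was under 16, a fold is given as a bound, the brighter geometric mean over 16. A gene in a list is represented by its brightest tested probe set. Gene names came from the platform annotation, with symbols updated from RefSeq, and 1394 tested ones had no single gene. The named genes were those whose probe sets all had an unadjusted p under 0.05 in one direction (the 10 per direction with the largest smaller change), the 3 members of a list with the smallest p, genes the study names and genes with opposite probe sets. Other list members under 0.05 and those stated to be so were chosen after their values were seen. The members, lists and tests were chosen with earlier results of these data known. Alternatives changed the trend, offset, filter, normalization, weights, probe set summary, chromosome centring and arrays used, 1 at a time. The 4-array comparison and the control covariate were chosen after seeing the data. Some genes selected by this rule are not reported here. Figures were drawn with matplotlib 3.10.9.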

Additional observations from a re-analysis of the deposited data

Results flagged for a closer look

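The change between ρ° and ρ+ cells differed between 143BTK- and A549 (limma fit of 12 arrays, adjusted p under 0.05 for the difference) for 12 named genes. The difference in log2 change, 143BTK- minus A549, was 4.04 for IGFBP3, 3.17 for GPNMB (1.25 in 143BTK- and −1.93 in A549, limma adjusted p = 0.0170), 1.48 for POLD2 (0.74 and −0.74, 0.0281), 1.48 for COL5A2 (0.80 and −0.68, 0.0467), 1.22 for NDUFS6 and 1.14 for LIPA (0.56 and −0.58, 0.0467). It was −4.39 for DLK2 (−2.12 and 2.26, limma adjusted p = 0.0104), −2.88 for GSTM3, −2.24 for USP46, −1.93 for TTC19, an assembly factor of complex III (−0.75 and 1.18, 0.0330), −1.65 for SREBF1 (−1.14 and 0.51, 0.0338) and −1.35 for NDUFC1. In each of the 12 the change had opposite signs in the lines. Many were named for their change in 143BTK-, a term of the difference, so their number and signs follow in part from that choice.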

How the results depend on the processing

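The 0 higher and 0 lower probe sets at an adjusted p under 0.05 from limma stayed 0 without the trend, with 16 or 64 added before log2, without a filter, with the study's number of probe sets, at signals of at least 64, with cyclic loess, with chromosome medians removed and with the control covariate, and leaving out 1 array gave 0 to 0 in each direction. Array quality weights gave 11 and 14, and leaving out both ρ+ C and ρ° B gave 3 and 3. The power law global error model gave 776 and 915 fitted on ρ+ and 588 and 729 fitted on ρ°, and an unadjusted p under 0.05 gave 514 and 614. By the mean of a gene's probe sets 0 genes were called, but 2 were lower with 16 added before log2. The replicate letter as a block gave 0 higher and 1 lower probe set (PTPRO, adjusted p = 0.0132 from limma) and 1 lower gene. Deviations of arrays with the same letter correlated at 0.405, −0.133 and −0.0347 for A, B and C, and those of ρ+ C and ρ° B at 0.424. Deviations within a group are tied to each other through the group mean. These few values therefore cannot decide whether the letters pair the samples. The share of genes whose probe sets all changed in one direction (61.6%) was 67.6% at signals of at least 64, 51.2% without a filter, 64.9% without probe sets ending in _x_at or _s_at, and 59.9% to 65.7% with 1 array left out (highest without ρ+ C). The 240 probe sets that differed between the lines became 137 without the trend, 183 with the block and 94 to 251 with 1 array left out (123, 152 and 94 without ρ+ A, ρ+ B and ρ° A). Over 127 named probe sets and 2252 refits, 0 reversed, and 21 passed the adjusted threshold. Many of these probe sets were named for their change on the same arrays that the refits use again. The lack of reversals therefore follows in part from that choice. Signals near 16 limit the dim genes, whose folds are bounds.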
